A study of Homo sapiens with 16 samples.

Results

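The 39 protein-coding genes of the HOXA, HOXB, HOXC and HOXD clusters were followed together with the 3 MEIS and 4 PBX genes whose proteins bind DNA with HOX proteins. These 46 genes were taken by symbol and protein-coding biotype from a table of 60603 genes, with no expression value used in the choice. RNA came from SKNO-1 and U-937, 2 human lines used as models of acute myeloid leukaemia. They were kept for 24 h in the solvent DMSO, in all-trans retinoic acid (ATRA), in Corin, or in both agents. Each agent was used at 0.1 µM, with 2 libraries in each of the 8 groups. SKNO-1 carries the RUNX1-RUNX1T1 fusion and U-937, a monocyte-like line, the PICALM-MLLT10 fusion. ATRA activates the retinoic acid receptors, and Corin inhibits the LSD1 demethylase and the HDAC1 and HDAC2 deacetylases of the CoREST complex. No member was deleted or added in any group. The SKNO-1 medium also held GM-CSF at 10 ng/mL in all 4 of its groups, so line and medium cannot be told apart. Each line is a single long-established line, and the labels do not say whether the replicates were separate cultures, so p-values measure only the spread between these libraries.

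HOX genes encode homeodomain transcription factors that lie in clusters in the order in which they are switched on along the body axis, and retinoic acid is a classical inducer of the 3′ (low-numbered) genes. Polycomb complexes keep silent clusters repressed, and KMT2A (MLL) with its partners keeps active ones open. In blood stem and progenitor cells HOXA9, HOXA10 and MEIS1 are active and are shut down as cells mature. Their continued expression is a hallmark of several acute leukaemias, in which MEIS1 and PBX3 act as partners of HOXA9. MEIS proteins also bind PBX proteins and help to bring them into the nucleus.

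Estimated counts summed to 28.4 to 37.8 M per library. Of the myeloid markers, 8 of 8 were above 1 CPM (counts over the TMM-scaled library total in M) in SKNO-1 and 7 of 8 in U-937, where MPO was not. All 4 T cell, 4 erythroid, 4 epithelial and 6 fibroblast and endothelial markers were at or below that level in both lines, while of 4 B cell markers CD79A and PAX5 passed it in both lines, and MS4A1 was at 0 counts. ATRA raised 4 of 6 tested genes of a retinoic acid response list in SKNO-1 (2.96% of all genes) and 3 of 6 in U-937 (21.7%) and lowered none. The SKNO-1 DMSO pair stood apart: the SD of its log2 difference between replicates was 0.353 over 9483 well-expressed genes, against 0.106 to 0.199 in the other 7 groups, and this difference was correlated with GC content across genes, which are not independent replicates (Pearson's r = -0.812, a description only). The same correlation was -0.576 in the U-937 DMSO pair, 0.448 in the SKNO-1 ATRA pair and -0.419 in the U-937 combined pair. In the remaining groups it ran from -0.115 to 0.169.

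The lines differed in which clusters were on. In U-937, 11 of 11 HOXA and 7 of 9 HOXC genes had enough counts to be tested, with 78694 HOXA and 7503 HOXC estimated counts over its 8 libraries. In SKNO-1, HOXA gave 16 counts over 8 libraries, from HOXA5, HOXA7 and HOXA11, and HOXC gave 12, and no HOX gene could be tested. HOXB and HOXD were near silent in both lines: HOXB gave 2 counts in SKNO-1 and 4 in U-937, HOXD 1 and 8, and 12 of these 19 genes had 0 counts in all 16 libraries. A floor of 3 counts corresponded to 0.0793 to 0.106 CPM per library, and lower levels were not detectable at this depth. No treatment lifted any HOX gene of SKNO-1 above the filter.

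**Figure D1:**
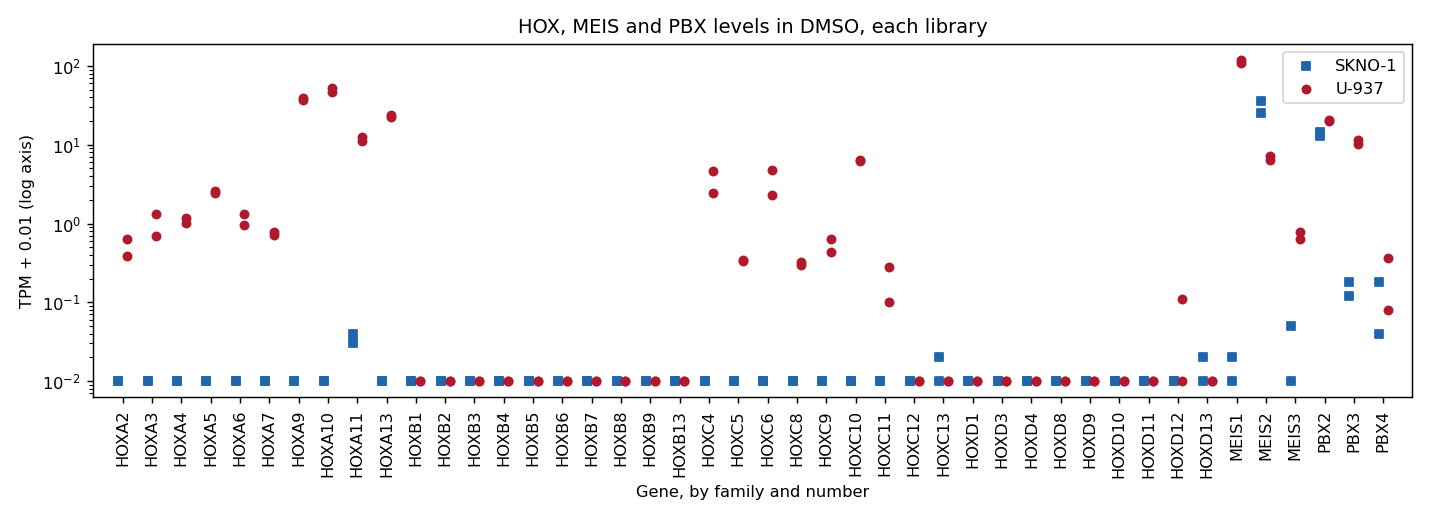
Levels of 44 of the 46 genes in DMSO in TPM (a share of all transcripts, scaled per length; plus 0.01, log axis), with 1 point per library, squares for SKNO-1 and circles for U-937. The 10 HOXA genes shown have mean U-937 levels of 0.50 to 49.9 TPM, SKNO-1 sits at or near the bottom of the axis in all 4 clusters, and MEIS2 is the member that is clearly higher in SKNO-1.

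Among members of U-937 in DMSO, MEIS1 had the highest TPM at 115 ± 5.94 (SD, n = 2). HOXA10 followed at 49.9 ± 3.75, HOXA9 at 37.9 ± 1.02, HOXA13 at 23.3 ± 0.820, PBX2 at 20.2 ± 0.658, HOXA11 at 11.9 ± 0.884 and PBX3 at 10.7 ± 0.863. The last pair of neighbours in this order overlapped within about 1 SD of each, and the others did not. The posterior HOXA genes, paralogs 9 to 13, which are related to the fly gene Abdominal-B, held 96.5% ± 0.0532 of the summed CPM of HOXA2 to HOXA13. HOXA2 to HOXA7 lay between 0.50 TPM (HOXA2) and 2.50 TPM (HOXA5). In HOXC, HOXC10 was highest at 6.30 ± 0.240 TPM, and HOXC4 (3.50 ± 1.52) and HOXC6 (3.49 ± 1.71) did not differ beyond their spread. HOXC4, HOXC5 and HOXC6 share or overlap exons, as do HOXA3 with HOXA4 and HOXA9 with HOXA10 in part, and their estimated counts were often not whole, so the division of reads between these neighbours is uncertain.

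The line contrast in DMSO can be read from these levels. Of 24 members tested in a fit of all 16 libraries, 21 were higher in U-937 and MEIS2 was lower, where 64.8% of all 19872 genes tested were called, 31.7% higher and 33.1% lower, but 20 of the 24 passed the filter through U-937 alone and so had to differ. HOXA13 (ENSG00000106031.9) had 6774 counts in the U-937 and 0 in the SKNO-1 DMSO libraries, at least 2668-fold higher with the SKNO-1 pair set to a floor of 3 counts. HOXA10 (ENSG00000253293.5) was at least 2077-fold and HOXA9 (ENSG00000078399.18) at least 1349-fold higher. MEIS1 (ENSG00000143995.20) had 15340 counts against 1, a ratio of 18126 with an exact 95% counting interval of 3253 to 715992, and PBX3 (ENSG00000167081.17) 929 against 17 (log2 5.88, SE 0.259, adjusted p = 2.01e-13). MEIS2 (ENSG00000134138.20) ran the other way, with 690 counts in U-937 and 4183 in SKNO-1 (log2 -2.48, SE 0.104, adjusted p = 9.66e-14). PBX2 and PBX4 were not called (log2 0.18 and 0.62).

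The promoters of 4 members are shown because their genes responded differently in U-937: HOXA2 rose with ATRA and further with both agents, HOXA9 fell with ATRA and rose with both, HOXA13 fell with both agents, and MEIS1 was the member at the highest level. Each is the 250 bases before the gene's start in RefSeq on GRCh38.p14, written 5′ to 3′ in the direction of the gene, with capitals marking letters of a MEIS or PBX-HOX motif on either strand. HOXA2 is at chr7:27102684-27102933 (minus strand), HOXA9 at chr7:27165538-27165787 (minus strand), HOXA13 at chr7:27200092-27200341 (minus strand) and MEIS1 at chr2:66434875-66435124 (plus strand).
HOXA2: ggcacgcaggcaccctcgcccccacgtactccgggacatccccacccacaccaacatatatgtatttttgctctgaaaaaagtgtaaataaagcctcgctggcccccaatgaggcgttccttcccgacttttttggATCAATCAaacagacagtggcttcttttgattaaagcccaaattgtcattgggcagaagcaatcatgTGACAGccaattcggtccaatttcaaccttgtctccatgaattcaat
HOXA9: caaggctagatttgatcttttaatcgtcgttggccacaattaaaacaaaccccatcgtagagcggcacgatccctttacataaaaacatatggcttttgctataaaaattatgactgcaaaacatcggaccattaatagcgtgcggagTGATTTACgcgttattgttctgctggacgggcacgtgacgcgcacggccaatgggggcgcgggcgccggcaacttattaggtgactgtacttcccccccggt
HOXA13: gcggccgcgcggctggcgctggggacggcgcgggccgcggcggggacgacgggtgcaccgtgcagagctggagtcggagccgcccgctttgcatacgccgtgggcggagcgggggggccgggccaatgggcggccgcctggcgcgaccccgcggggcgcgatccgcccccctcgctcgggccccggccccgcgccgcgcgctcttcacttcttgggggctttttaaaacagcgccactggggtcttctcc
MEIS1: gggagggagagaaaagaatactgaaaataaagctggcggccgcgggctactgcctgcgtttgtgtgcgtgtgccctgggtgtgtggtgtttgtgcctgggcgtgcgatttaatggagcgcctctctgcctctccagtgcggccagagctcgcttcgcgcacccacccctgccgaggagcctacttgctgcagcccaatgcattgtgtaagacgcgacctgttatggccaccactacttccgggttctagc
The letters searched on both strands were TGACAG for MEIS, TGATTGAT, TGATTTAT, TGATTTAC and TGATTAAT for PBX-HOX pairs, and for the hexamer of the retinoic acid receptor the consensus AGGTCA together with its variant GGGTCA, the further variant AGTTCA and also the variant GGTTCA. In HOXA2, TGACAG begins 47 bases and a PBX-HOX match (on the strand opposite the gene) 114 bases before the start, and in HOXA9 a PBX-HOX match begins 102 bases before it. The HOXA13 and MEIS1 windows hold none of these letters. RefSeq windows were at hand for 26 of the 46 members, 34 distinct windows in all. Of these, 3 held TGACAG (13% of 34788 windows of all genes), 4 a PBX-HOX match (2.25%) and 8 a receptor hexamer (33.8%). A direct repeat of that hexamer with a spacing of 1, 2 or 5 bases was in 0 of the 34 windows. Over all windows these repeats are rare (0.092%, 0.0287% and 0.0747%), so 0 of 34 says little about the members. HOXA13 has 40 CpG dinucleotides and 78.0% GC in its window, HOXA2 8 CpG and 47.2% GC, and the median over all windows is 11 CpG.

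With both agents, the HOXA cluster of U-937 changed most at its 3′ end. HOXA2 to HOXA7 all rose, by log2 1.09 to 2.27, whereas of the 4 posterior genes HOXA9 and HOXA11 rose by less, HOXA13 fell and HOXA10 was not called. The cluster lies on the minus strand of chromosome 7 (hg38, GENCODE 44) and its stretch from HOXA2 at 27100354 to the end of HOXA13 at 27200091 is described here. Over the 11 genes the median log2 fold change was 1.41, against 0.03 over all 17717 genes tested in U-937. Of the 24 tested members, 18 were called with both agents, 16 higher and 2 lower, where 65.3% of all genes were called, 33.1% higher and 32.2% lower. In bulk RNA, fewer cells that express a gene and less RNA of it per cell cannot be told apart.

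HOXA2 (ENSG00000105996.7), a patterning gene of the hindbrain and second arch whose promoter is printed above, read 0.689 and 1.05 CPM in DMSO, 1.76 and 1.73 with ATRA, 0.931 and 1.14 with Corin and 4.08 and 4.26 with both. The combined libraries were the highest, and ATRA lay above DMSO and Corin without overlap. Its log2 changes were 1.01 (SE 0.299, adjusted p = 0.00836) with ATRA, 0.25 with Corin and 2.27 (SE 0.286, adjusted p = 2.38e-07) with both, and the ATRA call was lost without DMSO replicate 1 (0.73, adjusted p = 0.125). HOXA3 (ENSG00000105997.22) read 1.75 and 1.05 CPM in DMSO, 2.62 and 2.16 with ATRA, 1.17 and 1.67 with Corin and 7.46 and 5.70 with both. Its rise of 2.23 with both (SE 0.274, adjusted p = 1.57e-07) exceeded its ATRA value of 0.76. The HOXA3 ATRA call was lost without DMSO replicate 2 (log2 0.45) or ATRA replicate 1 (log2 0.61). It was also lost with DESeq2 (adjusted p = 0.105) and in edgeR with GC trends removed (adjusted p = 0.101).

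HOXA4 to HOXA7 rose with both agents but differed with each agent alone. HOXA4 (ENSG00000197576.13) was at 1.5 and 1.12 CPM in DMSO, 1.21 and 0.880 with ATRA, 0.639 and 1.08 with Corin and 3.52 and 2.06 with both. Neither single agent was called (-0.32 and -0.63), and the combined rise of 1.09 (adjusted p = 0.00593) was lost without the combined replicate 1 (adjusted p = 0.159) or DMSO replicate 2 (adjusted p = 0.0682). HOXA5 (ENSG00000106004.5), a gene of lung and axial patterning, read 3.95 and 4.04 CPM in DMSO, 5.32 and 4.95 with ATRA, 4.66 and 5.84 with Corin and 11.4 and 9.72 with both. The combined libraries were above all others (log2 1.41, SE 0.183), and neither single agent was called (0.36 with ATRA, 0.39 with Corin). HOXA6 (ENSG00000106006.6) read 1.16 and 0.848 CPM in DMSO, 1.41 and 2.16 with ATRA, 1.44 and 2.06 with Corin and 3.88 and 3.99 with both. DMSO was the lowest and the combination the highest, while ATRA and Corin overlapped. HOXA6 rose by 0.82 with ATRA and 1.96 with both. Its ATRA call was lost without DMSO replicate 2 (log2 0.61) or ATRA replicate 2 (log2 0.47). It was also lost with DESeq2 (adjusted p = 0.128) and in edgeR with GC trends removed (adjusted p = 0.117).

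HOXA7 (ENSG00000122592.8) was the HOX gene called with Corin alone. It read 1.41 and 1.36 CPM in DMSO, 1.16 and 1.21 with ATRA, 3.33 and 3.40 with Corin and 4.35 and 5.46 with both. Every library with Corin lay above every library without it. Its log2 changes were -0.22 with ATRA, 1.28 with Corin (SE 0.249, adjusted p = 0.000837) and 1.82 with both (SE 0.246, adjusted p = 6.45e-07). The step from Corin to both agents (0.54, adjusted p = 0.0405) was lost without any single ATRA or Corin library or the combined replicate 2 (adjusted p = 0.0551 to 0.304). Among the members, 2 of 24 were called with Corin (HOXA7 and MEIS3, both higher), where 12.9% of all genes were called, 8.55% higher and 4.4% lower.

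**Figure D2:**
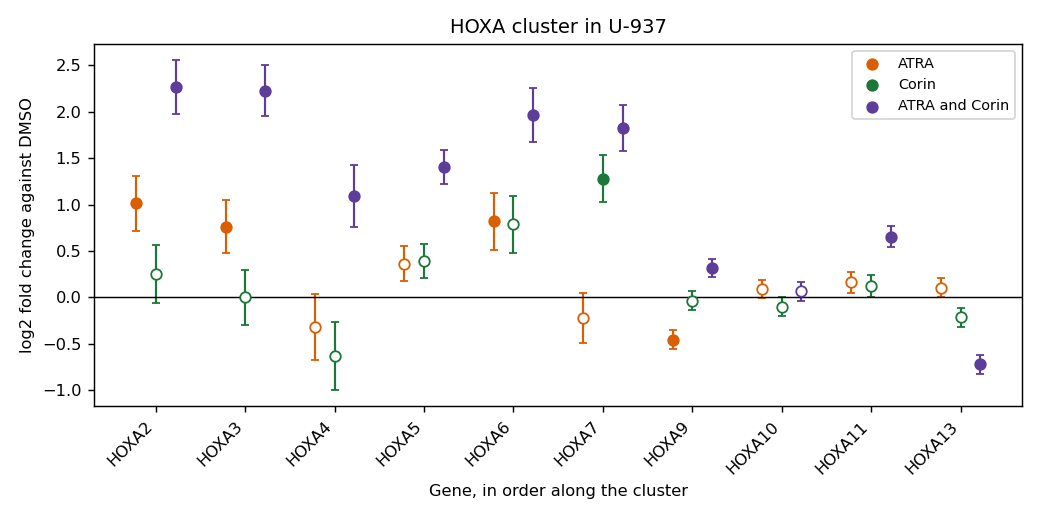
log2 fold change against DMSO (point, with SE bars) of 10 HOXA genes in U-937, in cluster order, for ATRA, Corin and both agents; filled points passed an adjusted p of 0.05 in edgeR's test. Combined-treatment points run from 2.27 at HOXA2 to -0.72 at HOXA13, and the Corin point is filled only at HOXA7.

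The posterior genes, which carry most HOXA RNA, moved little or in mixed directions. HOXA9, the partner of MEIS1 in leukaemia, was at 57.7 and 53.7 CPM in DMSO, 42.7 and 38.4 with ATRA, 56.6 and 52.1 with Corin and 68.0 and 70.7 with both. ATRA libraries were the lowest and combined libraries the highest, with no overlap between those groups and DMSO. It fell by 0.46 on the log2 scale with ATRA (SE 0.102, adjusted p = 0.000823), the only member called lower with ATRA, and rose by 0.32 with both (SE 0.101, adjusted p = 0.00847). The combined rise was lost without DMSO replicate 2 (adjusted p = 0.0944) or the combined replicate 2 (adjusted p = 0.0533), and when libraries were scaled by their totals alone (adjusted p = 0.0741). HOXA10, which marks the same progenitor programme, gave 90.3 and 81.1 CPM in DMSO, 91.2 and 90.9 with ATRA, 85.0 and 74.8 with Corin and 89.0 and 90.1 with both. Its ATRA libraries lay just above all others and DMSO overlapped both Corin and the combination, and no treatment contrast in U-937 called it: the combined log2 change was 0.06 with an SE of 0.0988. HOXA11 (ENSG00000005073.5), a limb and kidney gene, read 25.5 and 27.5 CPM in DMSO, 29.0 and 30.3 with ATRA, 32.0 and 25.7 with Corin and 39.8 and 43.7 with both. The combined libraries were above all others (0.65, SE 0.115, adjusted p = 2.66e-05). HOXA13, the last gene of the cluster and a limb and genital patterning gene, read 115 and 105 CPM in DMSO, 125 and 111 with ATRA, 90 and 99.7 with Corin and 61.6 and 71.9 with both. The combined libraries were below all others, a fall of 0.72 on the log2 scale (SE 0.106, adjusted p = 2.15e-06).

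The makeup of the HOXA RNA shifted towards the 3′ genes. The summed level of HOXA2 to HOXA7 was 9.96 ± 0.702 CPM in DMSO, 13.3 ± 0.285 after ATRA, 13.7 ± 2.14 after Corin and 33.0 ± 2.48 after both, while HOXA9 to HOXA13 gave 278 ± 15.2, 280 ± 12.3, 258 ± 8.04 and 267 ± 12.7. The share of HOXA2 to HOXA7 in the total of these 10 genes was 3.46% ± 0.0532, 4.54% ± 0.0970, 5.04% ± 0.896 and 11% ± 1.2 in the same order. This division of the cluster was made with the values known and is given without a test.

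The HOXC cluster of U-937, on the plus strand of chromosome 12 from HOXC13 at 53938831 to the end of HOXC4 at 54056030, changed in the same direction as the 3′ HOXA genes. With both agents 5 of its 7 tested genes rose (HOXC4, HOXC5, HOXC6, HOXC8 and HOXC10), none fell, where 33.1% of all genes were higher and 32.2% lower, and HOXC9 (0.82) and HOXC11 (0.63) were not called. The median log2 change was 1.19. Summed HOXC levels were 17.3 ± 3.30 CPM in DMSO, 32.3 ± 2.45 after ATRA, 19.4 ± 1.82 after Corin and 45.5 ± 3.97 after both. HOXC12 had 0 counts and HOXC13 1 count over the 8 libraries.

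HOXC6 (ENSG00000197757.8) changed most. It read 4.57 and 3.22 CPM in DMSO, 9.24 and 8.47 with ATRA, 3.99 and 4.96 with Corin and 18.3 and 16.6 with both. ATRA and combined libraries were above all others, and Corin overlapped DMSO. Its log2 changes were 1.18 with ATRA (SE 0.181, adjusted p = 1.18e-05), 0.19 with Corin and 2.16 with both (SE 0.179, adjusted p = 2.11e-10). HOXC10 (ENSG00000180818.5), a posterior gene of the hindlimb, read 6.98 and 6.99 CPM in DMSO, 13.3 and 12.5 with ATRA, 9.05 and 8.20 with Corin and 13.3 and 13.9 with both. ATRA and the combination overlapped here, with changes of 0.88 (SE 0.142) and 0.96 (SE 0.143) and a difference between them of 0.08 (SE 0.136, adjusted p = 0.673). HOXC5 (ENSG00000172789.3) likewise rose with ATRA (1.77, SE 0.400, adjusted p = 0.000967) and with both (1.44, SE 0.409), from 0.564 and 0.543 CPM in DMSO to 1.63 and 2.16 with ATRA and 1.92 and 1.06 with both, with 0.479 and 1.08 for Corin. Without the combined replicate 1 its combined call was lost (0.94, adjusted p = 0.0863). HOXC4 (ENSG00000198353.8) read 5.70 and 3.05 CPM in DMSO, 7.58 and 5.98 with ATRA, 3.46 and 4.80 with Corin and 11.4 and 8.69 with both. HOXC8 read 0.689 and 0.713 CPM in DMSO, 1.16 and 0.637 with ATRA, 0.612 and 0.522 with Corin and 1.98 and 1.24 with both. In each the combined libraries were above all others. HOXC4 (1.2, adjusted p = 0.00188) and HOXC8 (1.21, adjusted p = 0.00783) were called with both agents only. The HOXC8 call was lost with DESeq2 (adjusted p = 0.0716) and without the combined replicate 1 (log2 0.82).

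**Figure D3:**
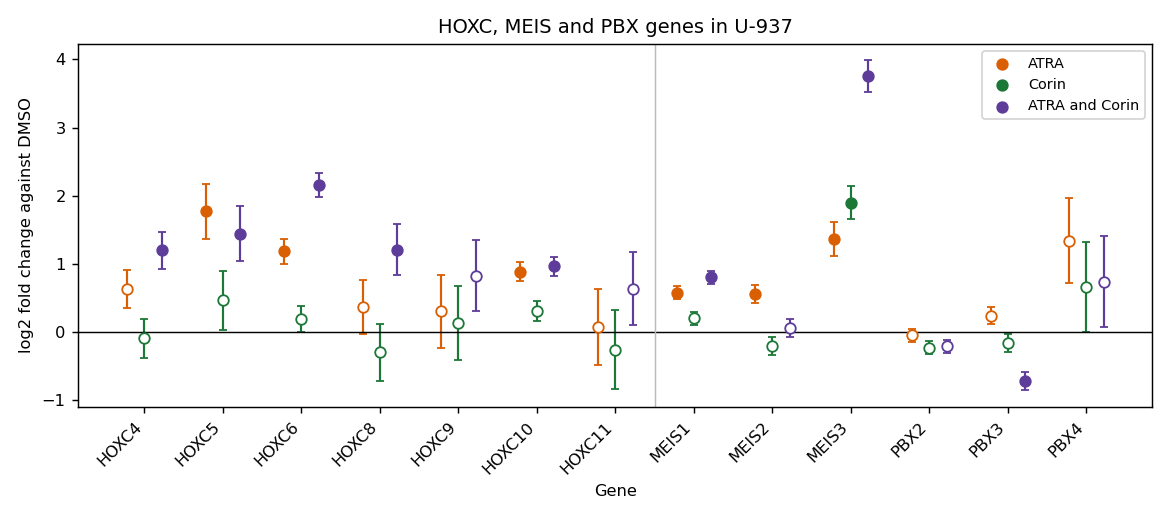
log2 fold change against DMSO (point, with SE bars) of the tested HOXC, MEIS and PBX genes in U-937 for ATRA, Corin and both agents; filled points passed an adjusted p of 0.05. All 7 HOXC points for the combination are above 0, MEIS3 reaches 3.75, and PBX3 falls to -0.73.

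The MEIS genes encode proteins that bind next to HOX and PBX proteins. All 3 rose with ATRA in U-937, where 21.7% of all genes were higher. MEIS1, on the plus strand of chromosome 2 from 66433452 to 66573869, read 253 and 246 CPM in DMSO, 383 and 361 with ATRA, 289 and 284 with Corin and 421 and 447 with both. The groups did not overlap. Its log2 changes were 0.58 with ATRA (SE 0.0992, adjusted p = 4.88e-05), 0.20 with Corin (SE 0.0991, adjusted p = 0.210) and 0.80 with both (SE 0.0995, adjusted p = 1.97e-07), and the difference between both agents and ATRA was 0.22 (SE 0.0987, adjusted p = 0.0702). MEIS2, on chromosome 15 from 36889204 to 37101299, read 11 and 11.5 CPM in DMSO, 17.0 and 15.9 with ATRA, 9.15 and 10.3 with Corin and 11.8 and 11.6 with both. Here the combined libraries lay near DMSO: the ATRA rise was 0.55 (SE 0.132, adjusted p = 0.00171), the combined change 0.06 (SE 0.135), and the combination was below ATRA (log2 -0.49, SE 0.132, adjusted p = 0.00365). MEIS3 (ENSG00000105419.17), on chromosome 19 from 47403124 to 47419527, changed most of all members. It read 1.00 and 0.746 CPM in DMSO, 2.32 and 2.19 with ATRA, 3.57 and 2.94 with Corin and 12.1 and 11.5 with both. Each treatment was above DMSO without overlap, at log2 1.36 (SE 0.252), 1.89 (SE 0.245, adjusted p = 5.01e-06) and 3.75 (SE 0.234, adjusted p = 1.11e-12), a 13.5-fold rise with both.

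PBX proteins are the other class of HOX partners. PBX3, which acts with HOXA9 and MEIS1 in leukaemia, read 15 and 15.2 CPM in DMSO, 17.5 and 18.2 with ATRA, 12.7 and 14.4 with Corin and 9.02 and 9.24 with both. The combined libraries were below all others, a fall of 0.73 on the log2 scale (SE 0.131, adjusted p = 3.59e-05), while ATRA (0.24, adjusted p = 0.136) and Corin (-0.16, adjusted p = 0.462) were not called. MEIS1 and PBX3 moved in opposite directions with both agents. PBX2 (ENSG00000204304.12) was at 56.5 ± 0.826 CPM in DMSO and 48.7 ± 0.346 with both (-0.21, SE 0.0965, adjusted p = 0.0556) and was called in no treatment contrast within U-937. PBX4 was at 0.206 ± 0.196 CPM in DMSO and was not called.

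With ATRA 11 of the 24 tested members were called, 10 higher and 1 lower, where 41.8% of all genes were called, 21.7% higher and 20.1% lower. The share called, 45.8%, is near that background. Relative to ATRA alone, the combination called 14 members, 11 higher and 3 lower (HOXA13, MEIS2 and PBX3), against 47.4% of all genes (22.5% higher, 24.8% lower). Relative to Corin alone it called 18, 16 higher and 2 lower, against 60.5% (29.9% higher, 30.6% lower). By the authors' deposited DESeq2 table for both agents in U-937, 15 members passed an adjusted p of 0.05, 13 higher and 2 lower. HOXA4 (adjusted p = 0.0505), HOXC5 (0.0595) and HOXC8 (0.0945), called by edgeR, did not pass there. The authors' deposited table for ATRA called 8 (7 higher, 1 lower) and that for Corin 2, both higher. The ATRA table did not call HOXA2 (adjusted p = 0.122), HOXA3 (0.182) or HOXA6 (0.219). Shares of all genes called in the deposited tables were not taken, and the edgeR shares are no background for these counts.

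Whether the agents added up was tested as the combined log2 change minus the sum of the single ones. In U-937 7 of 24 members departed from additivity, 5 above the sum and 2 below, where 23.4% of all genes departed, 8.09% above and 15.3% below. Those above it included HOXA4 (2.05, SE 0.495, adjusted p = 0.00329), HOXA3 (1.46, SE 0.394, adjusted p = 0.00775), HOXA9 (0.81, SE 0.143, adjusted p = 0.000151) and HOXC6 (0.78, SE 0.251, adjusted p = 0.0248). HOXA3 lost the call without DMSO replicate 1 (adjusted p = 0.113), and HOXC6 without DMSO replicate 1 (adjusted p = 0.229), ATRA replicate 2 (adjusted p = 0.0819), Corin replicate 1 (adjusted p = 0.109) or the combined replicate 1 (adjusted p = 0.0558). HOXA13 (-0.61, SE 0.148, adjusted p = 0.00335) and PBX3 (-0.80, SE 0.182, adjusted p = 0.00189) fell below the sum. MEIS1 lay at 0.02 (SE 0.140) and MEIS3 at 0.50 (SE 0.324, adjusted p = 0.305), so the large rise of MEIS3 was not distinguishable from the product of its single effects. With GC trends removed 12 members departed, but that setting also shifted the median of all genes by 0.12. The 23.4% of all genes belongs to the main fit and is no background for the 12.

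**Figure D4:**
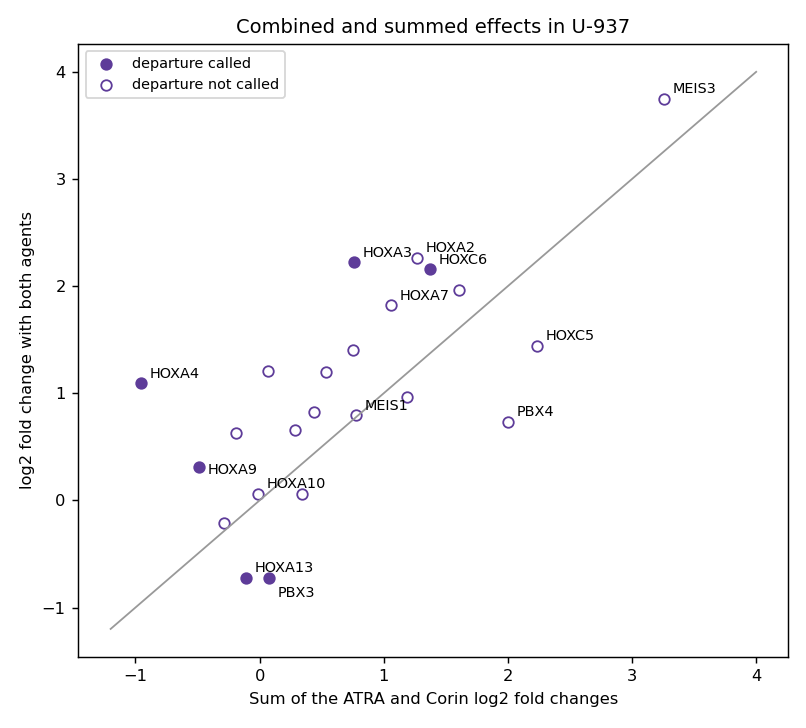
Combined log2 fold change (vertical) against the sum of the ATRA and Corin log2 fold changes (horizontal) for 23 of the 24 tested members of U-937; the line marks equality and filled points are departures with an adjusted p under 0.05. HOXA3, HOXA4, HOXA9 and HOXC6 lie above the line, and HOXA13 and PBX3 lie below it.

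Noncoding genes of the clusters were also measured in U-937. Of 24 listed, 8 were tested; 4 were higher with ATRA (21.7% of all genes), edgeR called 0 with Corin (12.9% of all genes; 1, HOXA-AS2, at an unadjusted p under 0.05), and 6 were higher with both (33.1% of all genes). HOTAIRM1 (ENSG00000233429.9), a long noncoding RNA of the 3′ end of the cluster, known as retinoic-acid responsive in myeloid cells, read 2.69 and 2.10 CPM in DMSO, 7.14 and 7.01 with ATRA, 2.98 and 2.51 with Corin and 29.6 and 28.5 with both. Combined libraries were the highest and ATRA lay above DMSO and Corin, with changes of 1.56 (SE 0.173), 0.20 (SE 0.188) and 3.60 (SE 0.168) and a departure from additivity of 1.84 (SE 0.239, adjusted p = 2.51e-06). HOXA-AS3 (ENSG00000254369.6) rose by 2.31 with ATRA and 4.18 with both. HOXA-AS2 had 0 counts in DMSO and was at least 8.58-fold higher with ATRA and 13.3-fold with both, with the DMSO pair set to the same floor. This gene passed the filter only through treated libraries, so a difference from DMSO had to appear. The strand used in counting is not given in the sources used here, so reads of these genes and of the HOX genes they overlap cannot be told apart.

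Tested protein-coding neighbours outside the clusters rose in U-937, where 21.7% of all genes were higher with ATRA and 33.1% with both agents. SKAP2, an adaptor protein gene 97.8 kb from the HOX genes of the HOXA cluster, rose by 1.18 with ATRA (SE 0.101) and 2.25 with both (SE 0.104), with 0.18 for Corin. At HOXC, CALCOCO1 at 211 kb rose by 0.93 and 2.67 and SMUG1 at 65.2 kb by 0.83 and 1.46. EVX1, the homeobox gene beyond HOXA13, had 41 counts over 8 libraries and was not tested. These neighbours were chosen by position and named after their values were seen.

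In SKNO-1 only MEIS2, MEIS3, PBX2 and PBX4 could be tested. MEIS3 passed the filter only through the libraries with Corin, so its differences from DMSO and from ATRA had to appear. With Corin 3 of these 4 were called, MEIS3 higher and MEIS2 and PBX2 lower, as with both agents, where 37.9% of all 17479 genes were called with Corin (20.5% higher, 17.3% lower) and 46.7% with both (24.7% higher, 22% lower). With ATRA edgeR called 0 of 4 against 6.76% of all genes (2.96% higher, 3.79% lower), and DESeq2 also called 0. At an unadjusted p under 0.05 the count with ATRA was also 0. Without Corin replicate 1, 1 member (MEIS3) was called with Corin. Departure from additivity was called for 0 of 4 by edgeR and by DESeq2 (0.463% of all genes, 0.315% above and 0.149% below the sum), with MEIS2 at an unadjusted p of 0.0111. Relative to ATRA alone the combination called the same 3 genes (44.8% of all genes, 23.0% higher and 21.8% lower), and relative to Corin alone it called MEIS2, lower (10.4% of all genes, 4.82% higher and 5.6% lower). That MEIS2 call (log2 -0.35, adjusted p = 0.0230) was lost without either ATRA, Corin or combined library (adjusted p = 0.0725 to 0.201) and with the replicate block (adjusted p = 0.0536).

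MEIS2 was the most abundant member of SKNO-1, at 55.0 and 60.0 CPM in DMSO, 56.6 and 57.2 with ATRA, 45.8 and 47.0 with Corin and 37.5 and 35.2 with both. Libraries with both agents were the lowest, those with Corin next, and ATRA overlapped DMSO. It fell by 0.31 on the log2 scale with Corin (SE 0.0722, adjusted p = 0.0115) and by 0.66 with both (SE 0.0729, adjusted p = 0.000247), and the ATRA change was -0.02 (SE 0.0719). The authors' deposited DESeq2 table did not call MEIS2 with Corin (adjusted p = 0.0990). Without Corin replicate 1 or 2 the Corin call was lost (adjusted p = 0.0822 and 0.0621). PBX2 read 51.3 and 40.5 CPM in DMSO, 47.8 and 52.5 with ATRA, 28.0 and 30.9 with Corin and 30.9 and 28.2 with both. All 4 libraries with Corin were below all 4 without it. It fell by 0.64 with Corin (SE 0.124, adjusted p = 0.00518) and by 0.64 with both (SE 0.124, adjusted p = 0.00403), and the Corin call was lost without Corin replicate 1 (adjusted p = 0.0532). In view of the wide DMSO pair, the combined values were also taken without each DMSO library: MEIS2 was at -0.74 without replicate 1 and -0.61 without replicate 2, and PBX2 at -0.47 and -0.81, with both calls kept.

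MEIS3 was near silent in SKNO-1 without Corin and appeared with it. It had 2 counts over the DMSO libraries, 1 with ATRA, 54 with Corin and 81 with both, or 0.912 and 0.646 CPM with Corin and 0.779 and 1.68 with both. The ratio of scaled counts to DMSO was 28.3 with Corin (exact 95% counting interval 7.47 to 240.0; edgeR adjusted p = 0.00457) and 44.9 with both (12 to 377; adjusted p = 0.00140). The gene passed the filter only through the libraries with Corin, so a difference had to appear. PBX3 had 17, 9, 15 and 11 counts over the DMSO, ATRA, Corin and combined libraries of SKNO-1. PBX4 was called in no contrast.

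**Figure D5:**
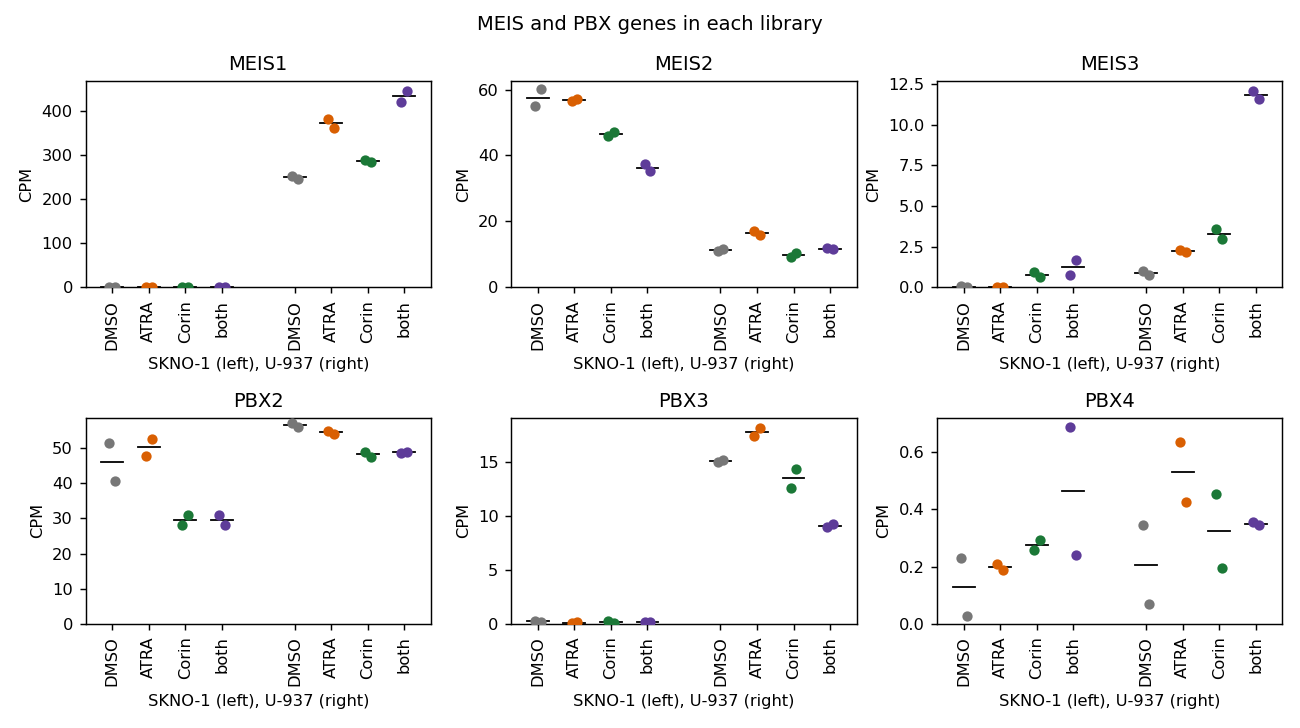
CPM of 6 MEIS and PBX genes in each library (points) with the group mean (horizontal line), SKNO-1 on the left and U-937 on the right of each panel, each panel with its own axis from 0. MEIS1 and PBX3 are far higher in U-937, MEIS2 is higher in SKNO-1, and MEIS3 has its highest group mean with both agents in both lines, where the SKNO-1 Corin and combined libraries overlap.

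Differences between the lines in response were tested as interactions in the fit of all 16 libraries, which for HOX genes say little because SKNO-1 held almost no counts. The ATRA effect on MEIS2 was 0.61 higher in U-937 (SE 0.141, adjusted p = 0.00427), against 19.4% of all genes called (10.6% higher, 8.81% lower), and the combined effect 0.77 higher (SE 0.143, adjusted p = 0.000229), against 40.6% (17.9% higher, 22.7% lower). In the Corin interaction 1 member, MEIS3, was called lower in U-937, against 12.8% of all genes (5.28% higher, 7.49% lower). The combined effect on PBX2 was 0.46 higher in U-937 (SE 0.144, adjusted p = 0.0145), but not without SKNO-1 DMSO replicate 1 (adjusted p = 0.0873), the SKNO-1 combined replicate 2 (adjusted p = 0.0885) or U-937 DMSO replicate 2 (adjusted p = 0.0512).

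Genes that act on HOX loci or with their products were followed as lists, chosen with earlier results of these data known. Of 18 tested activators of HOX loci, 4 rose and 14 fell with both agents in U-937, where 33.1% of all genes rose and 32.2% fell, while with Corin 0 rose and 2 fell (8.55% and 4.4% of all genes), and the combined median was -0.53. WDR5, a subunit of the KMT2A and related methyltransferase complexes, fell by 2.36 (SE 0.109), and MLLT10, a cofactor of the methyltransferase DOT1L and part of the U-937 fusion, whose reads can come from the fusion or the intact gene, rose by 1.78 (SE 0.107). In SKNO-1 0 rose and 6 fell with both, where 24.7% of all genes rose and 22% fell, and WDR5 fell by 0.58 and DOT1L by 0.53 with Corin. Of 22 polycomb and K27 demethylase genes, 7 rose and 8 fell with both agents in U-937 (median -0.16), against the same shares of all genes (33.1% and 32.2%). EZH2, the methyltransferase of PRC2, fell by 1.57 (SE 0.100) and CBX2, a PRC1 reader, by 2.35 (SE 0.128). In SKNO-1 6 rose and 4 fell (24.7% and 22% of all genes), with EZH1 at 0.95 and CBX6 at 0.92. Of 6 tested other TALE and PBX-binding genes in U-937 2 rose and 3 fell with both (33.1% and 32.2% of all genes), PBXIP1, which encodes a PBX-binding inhibitor, rising by 2.19 (SE 0.108), and IRX3 falling (log2 -2.16, SE 0.162). In SKNO-1 2 of 7 rose and 1 fell with both (24.7% and 22% of all genes): PBXIP1 rose by 0.91 with Corin, and TGIF2, a TALE repressor gene, fell by 0.53 with both.

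Among 14 tested genes reported as HOXA9 or MEIS1 targets, 6 rose and 7 fell in U-937 with both agents (median -0.08, all genes 0.03; 33.1% and 32.2% of all genes), so its members did not share a direction. BCL2, an antiapoptotic gene, fell by 3.98 (SE 0.124) and the pseudokinase gene TRIB2 by 3.32 (SE 0.198). In SKNO-1, where HOXA9 and MEIS1 were near 0, 5 of 15 rose and 7 fell with both agents (24.7% and 22% of all genes), and ID2, a differentiation inhibitor, rose by 1.29 with Corin while the cell cycle kinase gene CDK6 changed by log2 -1.28 with both (SE 0.114).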

How the data were processed

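RNA-seq (a stranded total RNA kit, per the labels' protocols) was read from 16 libraries. The authors deposited estimated counts and TPM per gene for each library, made with Trimmomatic, STAR and RSEM on hg38, per the submitters' processing notes, and DESeq2 tables of log2 fold changes and adjusted p-values; versions are not given in the sources used here. ERCC spike-ins were added, per the labels, but the table has 0 ERCC rows, so scaling rests on the genes. Of positive values, 20.4% were not whole, and counts were rounded.

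Genes were filtered (filterByExpr), scaled (TMM) and tested in edgeR 4.0.16 (robust quasi-likelihood, R 4.3.3, limma 3.58.1) over all genes with Benjamini-Hochberg adjustment, called at an adjusted p under 0.05, with 1 fit of 8 libraries per line and 1 fit of all 16 for contrasts between lines. Fold changes of the main fits are unshrunken log2 values. Medians over members and over all genes, and edgeR values with a library left out, carry edgeR's slight shrinkage. A group at 0 was set to a floor of 3 counts, and intervals and floors cover counting error only. TPM served only to compare genes in DMSO, because the median log2 TPM of well-expressed genes shifted by -0.55 with both agents in U-937. The scripts were tested on simulated data.

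Members called in a line with a mean of at least 0.5 CPM are given per library; from the other lists, the 2 called genes with the largest change per line and a mean of at least 1 CPM are named. Neighbouring genes, and noncoding genes other than the top ones, were named after their values were seen. The values of a few genes are not reported here. Members and lists were chosen with earlier results of these data known. Alternatives were DESeq2 1.42.0, other scalings, no filter, only the libraries compared, GC trends removed, a replicate block and each library left out.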

Additional observations from a re-analysis of the deposited data

Results flagged for a closer look

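Effects that differed between the lines by an interaction test in edgeR were found for 3 members. For MEIS2, the ATRA effect was 0.61 higher in U-937 than in SKNO-1 on the log2 scale and the combined effect 0.77 higher. For PBX2, the combined effect was 0.46 higher in U-937. For MEIS3, the Corin effect was lower in U-937 (log2 -2.77, adjusted p = 0.0444). That MEIS3 value rests on 2 counts in the SKNO-1 DMSO libraries, and the call was lost in 17 of 24 alternatives (adjusted p 0.00765 to 0.191 over them). The causes were not tested.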

How the results depend on the processing

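Of 105 named member results, 89 kept their direction and call under every alternative, 16 lost the call at least once and 0 reversed; of 158 uncalled results, 66 changed sign at least once. The cause was not tested for any of these. Leaving out 1 library at a time gave these ranges of called members: in SKNO-1 0 to 1 with ATRA, 1 to 4 with Corin, 3 to 4 with both, 3 to 3 for both against ATRA, 0 to 1 for both against Corin and 0 to 1 for additivity; in U-937 9 to 12, 2 to 2, 15 to 19, 14 to 16, 16 to 18 and 6 to 8 in the same order; between lines 22 to 23 in DMSO, and 1 to 2, 0 to 1 and 1 to 2 for the ATRA, Corin and combined interactions. With GC trends removed, 12 members departed from additivity in U-937 and 2 were called in the ATRA interaction. The Corin interaction (1 member) became 0 with DESeq2, with only the libraries compared and with library totals only, and 2 with GC trends removed. The combined interaction (2 members) became 1 with library totals only and with only the libraries compared. Scaling by library totals only, chosen after seeing the data, shifted the median of all genes by -0.12 for both agents in U-937, -0.13 against Corin, 0.16 between lines in DMSO and -0.16 in the combined interaction; removing GC trends shifted it by 0.12 for additivity in U-937 and 0.11 in the combined interaction.

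The labels do not pair replicates of the same number. Correlations of same-numbered deviations ran from -0.498 to 0.227 in SKNO-1 and -0.461 to 0.421 in U-937. The highest was between DMSO and both agents in U-937. These correlations cannot decide whether same-numbered libraries shared a culture or batch. With the replicate block, counts were 0, 3, 3, 3, 0 and 0 in SKNO-1, 10, 2, 18, 14, 18 and 7 in U-937, 22 between lines, and 1, 0 and 2 for the interactions (2 for Corin with the block and GC trends removed).

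With 2 libraries a group, small changes are not detectable, and members under about 0.1 CPM rest on a few counts.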
